A study of Mus musculus with 4 samples.

Results

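The 3154 positions described here are m6A calls of day 6 mouse retinal organoids that the site tables place in no gene and that both untreated libraries listed. A position was taken when its gene field read ELSE, it was not mitochondrial, and it had at least 20 reads with A or G in each untreated table. These were 3154 of the 1076788 positions listed in any of the 4 tables. The same rule found 24135 positions that the tables assign to a gene, so positions outside genes made up 11.6% of the sites that met it. The sites were selected on their untreated listing, read number and, through the limits for listing, level, so their untreated values are given only as a description.

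N6-methyladenosine (m6A) is the most common internal modification of mRNA and is written mainly by a nuclear complex in which METTL3 is the catalytic subunit. It marks transcripts for readers that act on splicing, export, translation and decay, and in neural tissue it is known for clearing transcripts as progenitors change state. GLORI reads m6A base by base: glyoxal and nitrite turn unmethylated A into inosine, read as G, whereas a methylated A stays A. The level of a site is thus the percentage read as A out of all reads with A or G there. RNA outside annotated genes comes, among other sources, from long 3′ ends, introns, unannotated transcripts and repeats.

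The libraries were polyA RNA of organoids made from an Rx:GFP mouse line, a reporter of retinal cells, with an FKBP12F36V-HA degron at the C-terminus of endogenous METTL3. All 4 libraries carried the reporter and the degron. Untreated organoids gave 2 libraries, and organoids kept in 125 nM dTAG13, which recruits degron-tagged protein for degradation, for 8 h gave the other 2. The genotype field names Mettl3, Mettl4, Mettl5 and Mettl6 in turn over the 4 samples, while the study's title and design name METTL3, which is followed here. Nothing says that the libraries came from separate cultures, so p-values measure only the spread between these libraries. The protein was not measured, and the tables are of bulk RNA, in which fewer cells of a type and less RNA per cell cannot be told apart. All 10 retinal markers looked up, Rax and Six3 among them, had listed sites in every library, and so did all 5 pluripotency markers. Retinal pigment epithelium markers were listed for 3 or 4 of 4 genes, with Tyr missing in 3 libraries, and mesoderm and endoderm markers for 1 to 3 of 6, with Tbxt, Mixl1 and Meox1 listed in none. Summed reads over all listed sites ran from 30102100 to 54905400 and were lowest in the first dTAG13 library, which also listed the fewest sites, 220034. Such a sum falls with the number of sites listed and is not a measure of sequencing depth.

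Sites outside genes were numerous in each library but rarely shared. The untreated tables listed 74759 and 78179 of them, of which 3558 were in both and 3154 met the read minimum. The 3154 sites were thus 4.22% and 4.03% of the sites outside genes of each untreated library. The shared sites also had other levels than the unshared ones. All sites outside genes had a median level of 96.2% and 95.0% in the untreated libraries, and 57.3% and 54.6% of them were at 90% or more. The 3154 shared sites had a median mean level of 28.2%, with an interquartile range of 18.7% to 50.4%, and 266 of them (8.43%) were at 90% or more. The shared sites in genes, at a median of 27.9% with an interquartile range of 17.7% to 52.0%, had almost the same levels. Sites outside genes had fewer reads, with medians of 80 and 87 reads in the untreated libraries against 151 and 166 at gene sites. Between the untreated libraries, the levels of the 3154 sites differed by a median of 5.71 percentage points. At the read minimum, the 404 sites with 15 to 19 reads in a library had a median untreated level of 57.2%, and the 321 sites with 20 to 24 had 52.5%. These groups were listed again at 28.2% and 37.4% in the first dTAG13 library and at 47.5% and 54.2% in the second.

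After 8 h of dTAG13, sites outside genes were listed again far more often than gene sites chosen in the same way. Of the 3154 sites, 1359 were in the table of the first dTAG13 library, 43.1% with a Wilson 95% interval of 41.4% to 44.8%. The second dTAG13 library listed 1513, or 48.0% (46.2% to 49.7%), and the mean over the libraries was 45.5% ± 3.45 (SD, n = 2). Of the gene sites, 12.4% and 13.1% were listed again. The gap was 30.7 percentage points in the first dTAG13 library and 34.9 in the second. Both dTAG13 libraries listed 1174 sites outside genes (37.2%) and neither listed 1456 (46.2%), whereas neither listed 79.6% of the gene sites. A site absent from a table can be unmethylated, below the limits of 15 reads, 5 A reads and a level of 10%, or without reads. The intervals cover counting error only, and 2 libraries allow no test of the gap.

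The gap was present at every untreated level. Among sites at 20% to 40%, 47.9% and 52.2% of those outside genes were listed again in the first and second dTAG13 library, against 10.4% and 11.1% of gene sites. At 60% to 90%, where recovery outside genes was lowest, the shares were 28.2% and 33.2% against 7.55% and 8.65%. At 90% or more they were 43.6% and 50.0% against 12.4% and 13.2%. By read number, the mean gap was 46.8 percentage points at 20 to 50 mean untreated reads, 37.0 at 50 to 100, and 25.8 to 26.6 in the 3 classes above.

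**Figure D1:**
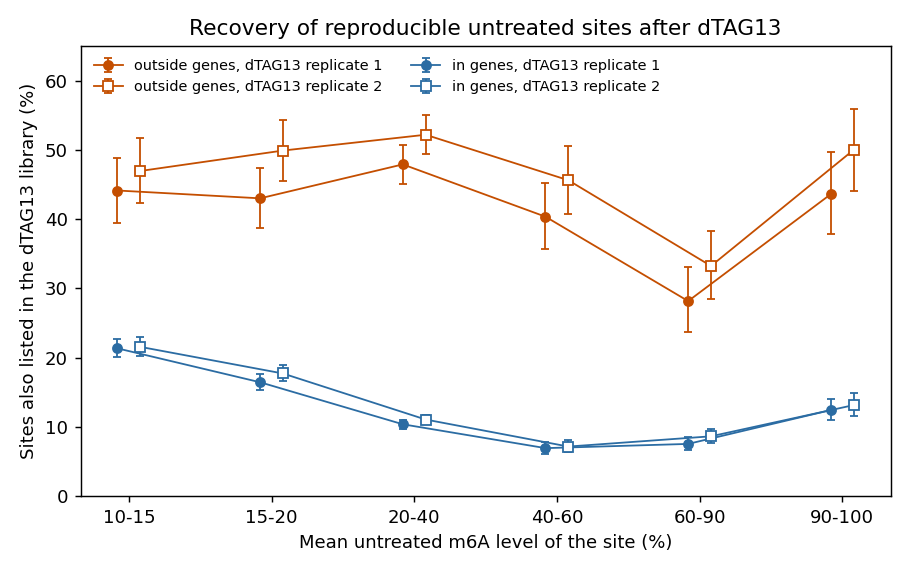
Share of reproducible untreated sites that each dTAG13 library listed again (y axis, percent) by mean untreated level (x axis, percent), for sites outside genes (orange) and in genes (blue). Filled circles are dTAG13 replicate 1, open squares replicate 2, and bars are Wilson 95% intervals of counting error. In every level class the sites outside genes lie above those in genes, the lowest of them at 28.2%.

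The size and sign of this gap depended on requiring both untreated libraries. When sites were taken from 1 untreated library alone, only 3.59% of those outside genes (without untreated replicate 2) and 3.92% (without untreated replicate 1) were listed with dTAG13, and the gap to gene sites became -1.72 and -1.21 percentage points. The other untreated library serves as the background for that measure. Of 64185 sites outside genes with at least 20 reads in untreated replicate 1, 5.08% were listed in untreated replicate 2, 3.27% in the first dTAG13 library and 3.91% in the second. Of 248700 gene sites, 9.87% were listed in untreated replicate 2 and 5.12% and 5.51% with dTAG13. The dTAG13 libraries thus listed 0.707 times as many sites outside genes as the other untreated library did, and 0.538 times as many gene sites. Starting from untreated replicate 2, these ratios were 0.787 and 0.543. Among starting sites at 40% to 90%, they were 0.601 outside genes and 0.330 in genes from replicate 1, and 0.683 and 0.335 from replicate 2. Seen from the other side, 2155 sites outside genes were listed with at least 20 reads in both dTAG13 libraries, and 61.2% and 65.7% of them were in the first and second untreated table. Of 10807 gene sites taken in this way, 20.9% and 21.7% were in the untreated tables.

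Recovery differed with position. The distance from each site to the nearest gene site on its own strand in the untreated tables had a median of 22604 bases and was split after the data had been seen. The 800 sites within 1 kb of a gene site were listed again at 16.6% and 18.0%. The 518 sites at 1 to 10 kb were listed at 34.0% and 37.5%, the 925 sites at 10 to 100 kb at 57.3% and 62.4%, and the 899 sites beyond 100 kb at 57.7% and 66.5%. Those near genes were thus close to the 12.4% and 13.1% of gene sites, and those beyond 10 kb were well above them. Median distance was 65407 bases for sites that both dTAG13 libraries listed and 1921 bases for sites that neither listed.

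The contrast by distance was larger at high levels. At 40% to 90%, 8.19% and 10.3% of the 232 sites within 1 kb were listed again, against 55.1% and 62.2% of the 376 sites beyond 10 kb. At 90% or more the shares were 8.62% and 10.3% of 58 sites against 64.4% and 73.8% of 149 sites. The near sites had more reads, a median of 118 against 73 mean untreated reads, and similar levels, 28.8% against 27.3%. Distance to gene sites on the other strand gave no such contrast: recovery beyond 10 kb minus that within 1 kb was -0.445 percentage points, against 43.7 on the same strand. Isolated gene sites went the same way as distant sites outside genes. The 59 gene sites with no other gene site within 10 kb on their strand were listed again at 52.5% and 49.2%, against 12.3% and 12.9% of the 23957 with one within 1 kb.

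**Figure D2:**
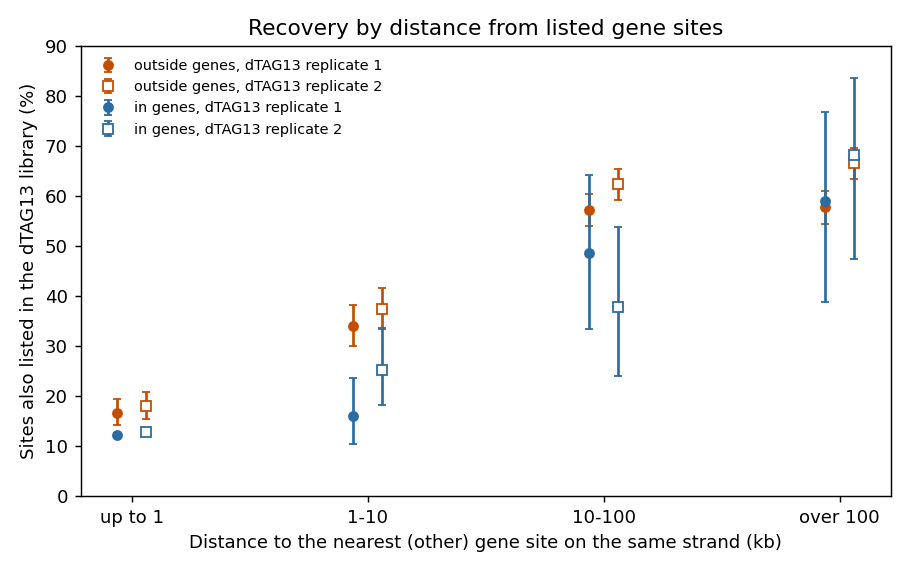
Share of sites listed again in each dTAG13 library (y axis, percent) by distance to the nearest gene site on the same strand (x axis, kb; for gene sites, the nearest other gene site). Colours, symbols and Wilson 95% intervals separate sites outside genes (orange) and in genes (blue) and dTAG13 replicates 1 (circles) and 2 (squares); recovery outside genes goes from 16.6% and 18.0% within 1 kb to 57.7% and 66.5% beyond 100 kb.

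Reproducibility without dTAG13 also differed with distance, though not in steps. Of the sites outside genes listed in untreated replicate 1, 3.83% of those within 1 kb, 2.34% of those at 1 to 10 kb and 9.72% of those beyond 10 kb were in untreated replicate 2. The dTAG13 libraries listed 1.87% and 2.29% of the near sites, 0.543 times the untreated share, and 7.01% and 8.31% of the distant sites, 0.788 times that share. At 1 to 10 kb they listed 1.44% and 1.72%, a ratio of 0.675. Starting from untreated replicate 2, the ratios were 0.584 within 1 kb, 0.756 at 1 to 10 kb and 0.882 beyond 10 kb. For starting sites at 40% to 90%, the ratio was 0.372 within 1 kb and 0.715 beyond 10 kb from replicate 1, and 0.392 and 0.838 from replicate 2. A lower ratio near genes thus remained when the dTAG13 libraries were set against an untreated library rather than against the selected sites.

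Recovery also differed between classes of flanked sites, but these classes differed in distance as well. For 723 sites, listed sites of a single gene lay on both sides on the same strand, so that the site fell within the listed span of that gene although the tables give it no gene. These were listed again at 22.0% and 24.9%. The 279 sites that lay between sites of 1 gene on the opposite strand were listed again at 63.8% and 65.2%. Of these 279, 240 lay beyond 10 kb, and the 15 within 1 kb were listed at 13.3% in each library. Flanking on the same strand made little difference at a like distance. Within 1 kb, 15.7% and 17.2% of 447 sites flanked on the same strand were listed, against 18.0% and 19.2% of 338 unflanked sites. Beyond 10 kb, the shares were 55.1% and 59.4% of 69 against 56.2% and 64.0% of 1515. The 240 sites there that lay between sites of a gene on the opposite strand were above both, at 66.25% and 68.75%. Other sites within 10 kb of a gene site were those not flanked on the same strand, whatever lay on the opposite strand. Of these, the 481 on its 3′ side were listed at 23.5% and 25.4%, and the 183 on its 5′ side at 41.0% and 42.1%.

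Meg3, Ddx39b and Srsf7 flanked the most sites on their own strand. Meg3, an imprinted long noncoding RNA, flanked 10 sites on chromosome 12 between positions 109509164 and 109514982, at mean untreated levels of 13.3% to 89.8%. The first and second dTAG13 library listed 4 and 2 of them, and neither listed 5. The highest, chr12:109514648, was at 79.7% and 100% without dTAG13 with 59 and 46 reads, at 27.3% with 22 reads in the first dTAG13 library, and absent from the second. Only chr12:109509164 was in all 4 tables, at 10.3% and 16.2% without and 12.3% and 10.7% with dTAG13, and these values overlapped. Ddx39b, an RNA helicase of splicing and mRNA export, flanked 7 sites on chromosome 17, of which the dTAG13 libraries listed 5 and 4. The deepest of them, chr17:35470168, had 2743, 1971, 2493 and 3350 reads and levels of 17.9% and 16.9% without and 18.5% and 22.7% with dTAG13. Both dTAG13 values were above both untreated values there, but the site did not pass the site test (adjusted p = 0.691). Srsf7, an SR-protein splicing factor, flanked 6 sites, of which each dTAG13 library listed 1 and neither listed 4. Its chr17:80511456 was at 42.3% and 96.6% without dTAG13, on 71 and 29 reads, and was not listed with it. A further 5 genes flanked 5 sites each. The first and second dTAG13 library listed 2 and 2 of those in Pgm1, a phosphoglucomutase gene, 0 and 1 in Eif4a2, a translation initiation helicase gene, and 0 in Gm21992, Srek1 and Trpm1.

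Sites that stayed listed kept their level. In all 4 tables with at least 20 reads were 1127 of the 3154 sites (35.7%) and 1191 of the 24135 gene sites (4.93%). A site whose level fell under 10% could not enter this set. Over the 1127 sites outside genes, untreated replicates 1 and 2 had median levels of 27.9% and 27.5%, and dTAG13 replicates 1 and 2 had 28.9% and 27.5%. The means of these medians were 27.7% ± 0.288 and 28.2% ± 0.998 (SD, n = 2 each), and the groups overlapped (exact two-sided permutation test, p = 0.667, where 2 against 2 libraries cannot go below 0.333). The median change of a site was 0.306 percentage points, with an interquartile range of -2.17 to 2.98. Without dTAG13 replicate 1 it was -0.141, on the other side of 0. Both dTAG13 values were below both untreated values at 182 sites (16.1%), against 19.4% of all 2321 sites in the test, and above them at 199 (17.7%), against 17.8% of all sites.

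The same levels in genes gave other values. At 40% to 90%, the median change was -0.62 percentage points at 226 sites outside genes and -20.7 at 114 gene sites. At 90% or more, it was -0.091 at 102 sites outside genes, whose median levels were 96.4% and 96.8% without and 96.3% and 96.1% with dTAG13. The 79 gene sites of that class had a median change of -47.5, from 98.6% and 98.3% to 50.0% and 47.4%. A fall of 10 points or more was seen at 45 of the 1127 sites outside genes and at 171 of the 1191 gene sites. A rise of that size was seen at 52 sites outside genes, more than fell, and at 81 gene sites. Most of the sites outside genes in this set were distant: 913 (81.0%) lay beyond 10 kb of a gene site and 74 within 1 kb. The median change was 0.347 percentage points at the distant sites and 0.772 at the near ones. At 40% or more, it was -0.0725 at 267 distant sites and -0.483 at only 16 near sites.

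**Figure D3:**
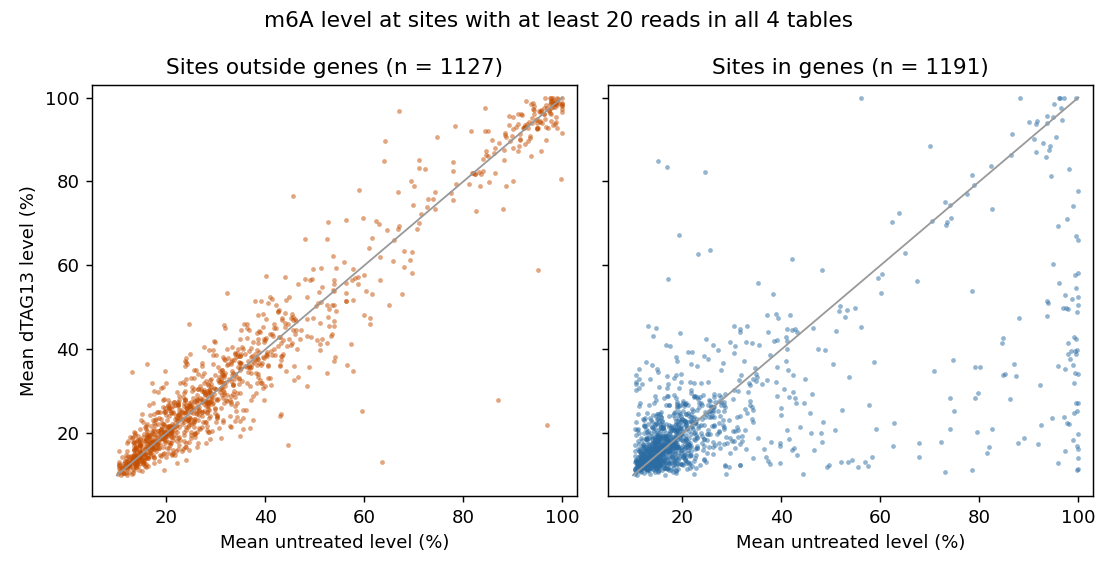
Mean level over the 2 dTAG13 libraries (y axis, percent) against the mean over the 2 untreated libraries (x axis, percent) for sites with at least 20 reads in all 4 tables, 1 point a site, with the line of equal levels in grey. The 1127 sites outside genes (left) follow the line up to 100%, whereas many of the 1191 gene sites (right) with high untreated levels lie below it.

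In the quasi-binomial test of A and G reads at the 2321 sites, 2 sites outside genes were lower and 1 was higher with dTAG13 at an adjusted p under 0.05. Over all sites tested, 2.2% were called lower and 0.0862% higher, 2.28% in either direction. At an unadjusted p under 0.05 there were 20 of the 1127, against 9.35% of all sites. The 3 calls rested on all 4 libraries. Leaving out any of them left 1 library in a group, a fit from which calls in genes or outside cannot be judged. Such a fit has 1 residual degree of freedom per site before the dispersion is moderated over sites, and the lone library is assumed to vary like the pair of the other group. The direction of the 3 changes was the same whichever library was left out, since the groups did not overlap at any of them.

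The largest fall was at chr18:12308031 on the plus strand, which lay between listed sites of Rmc1, a gene of lysosomal trafficking. It was at 99.9% and 94.0% in the untreated libraries, on 1333 and 851 reads, and at 27.7% and 16.3% after dTAG13, on 404 and 387 reads (adjusted p = 0.0384, quasi-binomial test). The groups were far apart, but edgeR gave an adjusted p of 0.137 and limma on log2 odds 0.259. The other fall was at chr17:21834312 on the plus strand, 25548 bases from the nearest gene site, which belongs to the zinc finger gene Zfp948. It went from 60.7% and 66.7%, on 183 and 57 reads, to 15.7% and 10.5%, on 127 and 285 (adjusted p = 0.0232, quasi-binomial test). Here edgeR gave an adjusted p of 0.0245 and limma 0.0396. The rise was at chr16:18057705 on the minus strand, 147 bases from a site of Ranbp1, which encodes a Ran-binding protein of nuclear transport. It went from 12.5% and 13.5%, on 649 and 422 reads, to 34.9% and 34.3%, on 252 and 591 (adjusted p = 0.0232, quasi-binomial test). The adjusted p was 0.0472 by edgeR and 0.0687 by limma.

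Other large differences outside genes did not pass. At chr9:57436237, between sites of Cox5a, a subunit of cytochrome c oxidase, untreated levels of 93.1% and 97.1% stood against 61.2% and 56.6% after dTAG13 (adjusted p = 0.0509, quasi-binomial test; 0.0409 by edgeR). At chr15:33221751, between sites of Cpq, a carboxypeptidase gene, it was 74.8% and 99.3% against 32.4% and 23.4% (adjusted p = 0.225, quasi-binomial test). The untreated values at chr4:119137660, between sites of the RNA-binding protein gene Ybx1, were 67.7% and 21.6%, a spread wider than the distance of the second to the dTAG13 values of 15.8% and 18.7%. Of the 5 largest falls at sites with at least 50 reads, 4 thus lay between listed sites of a gene on the same strand. Of all 1174 sites that both dTAG13 libraries listed, at any read number, 117 lay so. Among the 5 largest rises were chr5:30829090, between sites of the centromeric histone gene Cenpa, from 24.3% and 25.0% to 51.5% and 40.8% (adjusted p = 0.187, quasi-binomial test), and chr1:167213567, between sites of Mgst3, from 90.9% and 77.8% to 100% and 94.9%. The remaining rises, chr12:63712059 and chrX:115196862, lay over 100 kb from any gene site, with changes of 14.8 and 11.6 percentage points.

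Among near-complete sites listed in all 4 tables with at least 50 reads in each, a set that leaves out sites absent with dTAG13, the 5 with the most reads were chr18:12308031 and 4 whose levels changed little. At chr17:81620430, 60749 bases from a site of Slc8a1, the levels were 97.2%, 97.7%, 96.7% and 97.0% in untreated replicates 1 and 2 and dTAG13 replicates 1 and 2, on 562, 727, 509 and 823 reads. In the same order, chr9:105588294 gave 92.5%, 93.7%, 92.7% and 93.0%, and chr7:123280340 gave 91.1%, 93.7%, 92.7% and 93.2%. At chr17:29217474, opposite Stk38, the levels were 97.7%, 98.6%, 99.0% and 96.4%. The mean change of these 4 sites lay between -0.596 and 0.546 percentage points, and all 4 were over 10 kb from any gene site on their strand.

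Some near-complete sites were absent from both dTAG13 tables. The deepest, chr7:87128945 on the minus strand, was at 99.6% and 99.9% on 793 and 1205 untreated reads. A site 4 bases away was listed in the second dTAG13 library with 1661 reads and a level of 13.4%. At chr5:107613305 the levels were 97.6% and 100% on 452 and 272 reads, and at chr10:61267253, 1031 bases from a site of the translation repressor gene Eif4ebp2, 99.6% and 99.0% on 248 and 412.

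Some absent sites had a read neighbour. Within 25 bases of 305 of the 1795 sites outside genes that the first dTAG13 library did not list (17.0%), another site was listed with at least 50 reads. In the second library this held for 346 of 1641 (21.1%). For 68 and 74 of these, the untreated level was 40% or more, which at the neighbour's read number would correspond to at least 23.4 and 28.1 A reads. The read number of the absent site itself is not known, and reads can differ several-fold over such distances: chr12:63712038 and chr12:63712059, 21 bases apart, had 400 and 115 reads in untreated replicate 1. An example with many reads, chr2:23390912 on the plus strand, was chosen after its values were seen. It was at 55.7% and 56.6% on 10338 and 11742 untreated reads and in neither dTAG13 table, whereas chr2:23390933, 21 bases away, was at 18.0% and 16.1% without and at 19.7% and 21.3% with dTAG13, on 5840 and 6710 dTAG13 reads. A site 56 bases from the first, chr2:23390968, was at 40.2% and 36.8% without dTAG13 and was not listed with it.

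The deepest sites outside genes had low levels, and some were absent with dTAG13. At chr10:11367880 on the minus strand, 890342 bases from a gene site, 137863 and 179786 untreated and 118474 and 193160 dTAG13 reads gave levels of 15.3%, 14.1%, 14.4% and 14.1%. The next deepest, chr10:11367876, lay 4 bases away and went from 11.3% and 11.4% to 10.5% and 10.7%, both dTAG13 values below both untreated values, without passing the quasi-binomial test (adjusted p = 0.106). Levels of 21.0%, 20.1%, 21.8% and 21.7% were read at chrX:66703483, and of 17.9%, 17.9%, 18.2% and 18.2% at chr17:12815236. At chr1:8886497 they ran from 11.8% to 12.7%. Neither dTAG13 table held chrX:21546824, at 11.3% and 10.9% on 40507 and 67299 untreated reads, just above the limit of 10%, or chr1:8886421, at 16.2% and 15.5% on 30478 and 35553.

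Most sites stood alone. With a gap of at most 100 bases on 1 strand, 2334 sites (74.0%) had no partner, 644 were in pairs and 176 (5.58%) were in 56 clusters of 3 or more. Gene sites were in clusters more often at this gap, at 9.29%, and their largest cluster had 12 sites against 5 outside genes. With a gap of at most 50 bases the shares were close, 4.03% outside genes and 3.78% in genes. Clustered sites were listed again more often: 39.5% and 44.4% of single sites, 52.8% and 56.7% of paired sites, and 55.1% and 63.1% of clustered sites were in the dTAG13 tables. Gene sites had the same order, at 11.6% and 12.3%, 13.4% and 13.7%, and 15.4% and 17.4%. The 3 classes outside genes also differed in median untreated reads, 76, 117 and 151, and in median untreated level, 29.8%, 24.7% and 22.0%. At short range, sites outside genes were the more crowded. Of the 3154, 18.1% had another within 20 bases, against 11.9% of gene sites, although gene sites were the more numerous. A partner within 20 bases in the same set was found for 24.8% of the 1174 sites that both dTAG13 libraries listed and for 5.98% of the 1456 that neither listed. Directly adjacent positions, 1 base apart, made 12 pairs in the first of these sets and 0 in the second.

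The largest clusters differed in whether their sites were listed again. The cluster chr9:45736013-45736032 on the plus strand held 5 sites within 19 bases, 14159 bases or more from the sites of Bace1, a secretase gene. All 5 were in all 4 tables, at 13.8% to 32.0% and 15.6% to 47.3% without and 18.3% to 45.7% and 16.1% to 31.0% with dTAG13. The 5 sites of chrX:37271165-37271299, near the pseudogene Zfp36l1-ps, were divided. Those at offsets 0, 24 and 47 were in the second dTAG13 table, while those at 124 and 134, with untreated levels of 46.8% and 70.3% and of 43.6% and 46.1%, were in neither. In chr8:125784415-125784427, near Tsnax, 3 of 4 sites were listed in both dTAG13 tables, and the site at offset 9, at 13.8% and 11.6% without dTAG13, was in neither. The clusters chr13:95714627-95714726 and chr12:63712010-63712062 had 4 sites each, all of which at least 1 dTAG13 library listed.

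By chromosome, sites outside genes were spread unevenly relative to gene sites. For every 100 gene sites of the same rule there were 20.9 sites outside genes on X, 18.5 on chromosome 13, 17.9 on 17 and 16.2 on 1. The ratio was lowest on chromosomes 11, 9 and 19, at 7.51, 8.18 and 8.93. The Y chromosome held 9 sites outside genes and 10 gene sites, the highest ratio. Recovery with dTAG13 varied less, from 32.9% on chromosome 11 in the first library to 58.0% on chromosome 5 in the second. Contigs outside the assembled chromosomes held 12 sites, on 4 contigs with no gene site of the rule, of which the first dTAG13 library listed 1 and the second 0. Those tables held 129 and 160 sites outside genes on these contigs.

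Sites outside genes lay mostly on the plus strand, 2062 against 1092 on the minus strand (65.4%). Among gene sites 54.3% were on the plus strand, and among all sites outside genes of a library 56.7% to 57.6%. The plus share outside genes was above that of gene sites on 19 of the 20 chromosomes compared, all numbered chromosomes and X, with chromosome 18 as the exception. It ranged from 54.5% on chromosome 19 to 77.2% on chromosome 12. Plus and minus sites were listed again at similar rates, 43.0% and 47.6% against 43.2% and 48.6%.

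**Figure D4:**
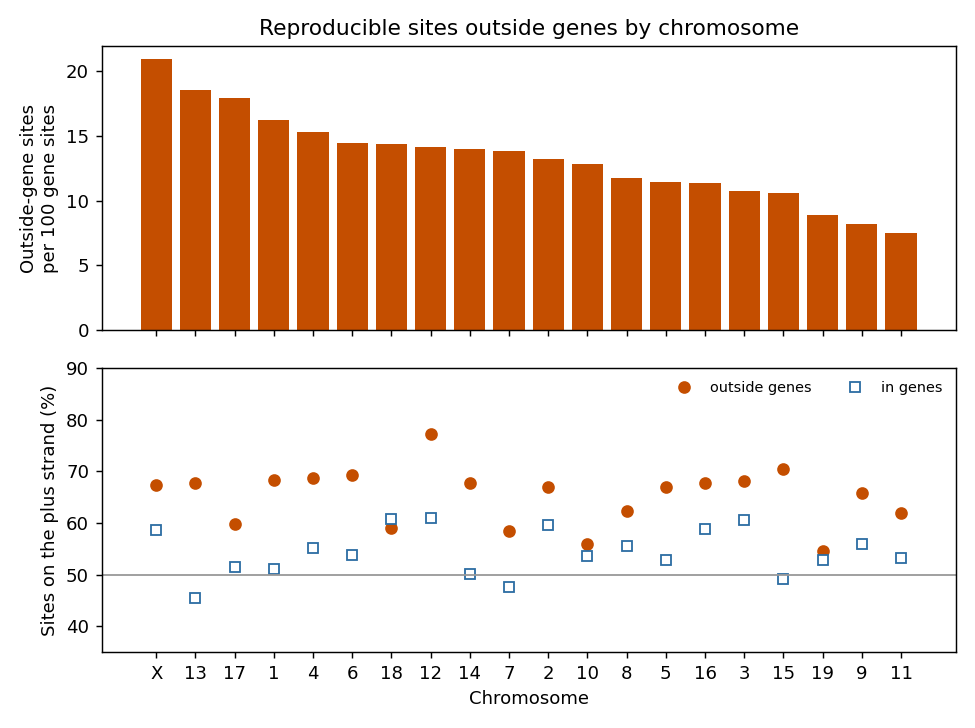
Sites outside genes per 100 gene sites of the same rule (upper panel, bars from 0) and the share of sites on the plus strand in percent (lower panel; orange circles outside genes, blue squares in genes, grey line at 50%) for the numbered chromosomes and X, ordered by the upper panel. The ratio goes from 20.9 on X to 7.51 on chromosome 11, and the plus share is higher outside genes on 19 of 20 chromosomes.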

How the data were processed

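GLORI site tables of 2 untreated and 2 dTAG13 libraries were used, 1 table per library with replicates not pooled. The authors deposited counts of A plus G and of A reads per site, unnormalized, and the fraction of A, which is the level here and is not corrected for conversion. The fraction converted (medians per library of 94.9% to 95.9% over chromosomes) and the coverage signal are, outside genes, 1 deposited value per chromosome. The deposited p-value of a site and its adjusted value, 0.00401 at most, were used only as a filter in an alternative. The aligner, caller and duplicate handling are not given in the sources used here. The submitters' processing notes name mm10, but contig names fit GRCm39 and only 10.9% of 260059 gene sites lay in their gene's GRCm38 interval, so coordinates are as in the tables. The sequence around sites, exons and UTRs were not analysed here.

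Tables were joined by chromosome, position and strand with Python 3.11.15 and pandas 2.3.3. Site changes were tested on counts with a quasi-binomial model in R 4.3.3, its dispersion moderated with squeezeVar of limma 3.58.1, held at 1 or above, and adjusted by Benjamini-Hochberg over 2321 sites with at least 20 reads in all 4 tables. It was tested on simulated data. edgeR 4.0.16, limma on log2 odds, Fisher's exact test, read and level minimums, cluster gaps and left-out libraries were alternatives. Distances were measured to listed gene sites, not to gene ends. The sites and lists were chosen with earlier results of these data known.

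Sites were named if they passed the test, had the 5 largest falls or rises (at least 50 reads in each library, non-overlapping groups) or the most reads at 90% or more (same read minimum), lay in the 5 largest clusters, or were the 3 deepest at 90% or more absent with dTAG13. The 3 genes flanking the most sites and the chromosomes with the 5 highest and 3 lowest ratios were named too. Chosen after the data were seen were the 5 genes flanking 5 sites each, the deepest sites, the sites beside a listed neighbour, and the distance classes.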

Additional observations from a re-analysis of the deposited data

How the results depend on the processing

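Recovery outside genes (45.5% over the dTAG13 libraries) was 39.7% at untreated levels of 40% or more. Leaving out 1 library gave 3.59% to 48.0%, the low values when 1 untreated library chose the sites. The gap to gene sites (32.8 points) was 27.7 at 100 reads or more and ranged from -1.72 to 34.9 over left-out libraries, reversing to -1.21 without untreated replicate 1 and -1.72 without untreated replicate 2. Of 10 alternatives each, 7 left recovery and gap within the spread between the dTAG13 libraries. Leaving out either dTAG13 library is counted among these, although its result could not fall outside that spread. The median level change (0.306 points) was -0.218 at levels of 40% or more, -0.091 at 90% or more and -6.34 with unlisted sites set to 10%. It ranged from -0.141 to 0.408 over left-out libraries. The 3 changed sites, out of 53 called over all 2321, became 1 out of 41 with limma on log2 odds. Fisher's exact test on summed reads, which ignores replicate spread, called 69 of the 1127 sites outside genes and 531 of all 2321. With the replicate block 0 of all 2321 sites were called, in genes or outside, and the median change outside genes stayed 0.306. The labels pair same-numbered libraries by nothing but the number. The correlation of their deviations was 0.0193 over 2321 sites and -0.0141 over the 1127 outside genes, from which a shared culture or batch cannot be judged. The share in clusters (5.58%) was 4.03% at a 50-base gap, 11.6% at 500 bases and 7.42% at 50 reads or more. Gene sites gave 3.78%, 33.3% and 9.65% in the same order. The ratio of dTAG13 to untreated recovery (0.707) was 0.585 at 40% or more and ranged from 0.644 to 0.771 over left-out libraries. The contrast by distance, added after the data were seen (43.7 points), was 37.4 at 100 reads or more, 52.3 at 40% or more, -0.445 by distance on the other strand and 40.9 to 46.4 over left-out libraries. The lowest listed level of 10% and 15 reads limit what an absent site can show.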

Other observations

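Sites opposite genes were spread over many genes. The 279 sites between listed sites of a gene on the other strand included 4 opposite Auts2, of which both dTAG13 libraries listed 2, and 3 opposite each of Armc1 and Tsc22d1, of which both listed all 3. Of the 3 opposite Sav1 and the 3 opposite Taf3, both dTAG13 libraries listed 0. A cluster that was absent as a whole was chr7:41277276-41277498 on the plus strand, 19517 bases or more from sites of Zfp788, where 4 sites had untreated levels of 43.3% to 100% and 36.1% to 100% and neither dTAG13 library listed any. In the cluster chrX:66703483-66703568 on the minus strand, sites at offsets 0 and 4 were in all 4 tables, at 21.0%, 20.1%, 21.8% and 21.7% and at 11.4%, 12.2%, 11.9% and 11.8%. The site at offset 85, at 39.0% and 45.4% on 8554 and 11419 untreated reads, was in neither dTAG13 table. These sites were chosen after their values were seen.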
